A study of Mus musculus with 9 samples.

Results

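A group of 9 genes that set how a cell passes through the G1 phase of the cell cycle was described in 9 RNA sequencing libraries of mouse epiblast stem cell lines. The 9 genes were listed by symbol with no cut on a measured value, but earlier results of these data were known when they were chosen. They are the D cyclins Ccnd2 and Ccnd3, the cyclin-dependent kinase gene Cdk6, the E cyclins Ccne1 and Ccne2, and the inhibitor genes Cdkn1b, Cdkn2a, Cdkn2b and Cdkn2c. They are 9 of the 52609 genes with a transcript in the deposited tables. All 9 were found, and all 9 passed the filter on low counts.

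Epiblast stem cells are derived from the epiblast, the layer of the early embryo that forms the body. Each of the 4 groups was 1 line. The groups were a line in which Dkk1 was knocked out, the gene of a protein that cells secrete and that blocks the Wnt co-receptors (Dkk1_KO, n = 3), a line from which IWP2 was taken away after derivation (IWP2_removed, n = 2), a line kept with 5 µM IWP2, an inhibitor of the enzyme Porcupine that cells need to secrete Wnt proteins (IWP2, n = 2), and a control line (control, n = 2). All groups were grown on inactivated mouse embryonic fibroblasts as feeder cells, in medium with 20 ng/mL of Activin A and 10 ng/mL of FGF2. SB431542, an inhibitor of Activin and Nodal receptors, is named in the shared protocol, but the inhibitor label of none of these groups lists it. The labels do not describe the Dkk1 allele or how the knockout line was made. With 1 line a group, an effect of the line and one of the knockout, of IWP2 or of its removal cannot be told apart. Nor do the labels say whether the libraries of a group came from separate cultures. The p-values thus measure the spread between these libraries, which may be technical.

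D cyclins bind Cdk4 or Cdk6 in G1, E cyclins bind Cdk2 later in G1, and together these kinases phosphorylate the retinoblastoma protein, which releases E2F transcription factors and lets the cell copy its DNA. INK4 proteins, encoded by Cdkn2a, Cdkn2b, Cdkn2c and Cdkn2d, block Cdk4 and Cdk6, whereas Cdkn1b encodes p27, of the Cip/Kip family, which binds cyclin E with Cdk2. Cdkn2a also makes Arf, from a separate first exon read in another frame, and Arf stabilises p53 by binding Mdm2. Mouse pluripotent cells are known for a short G1 phase.

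Cdkn2a and Cdkn2b lie side by side on the minus strand of chromosome 4, where Cdkn2a spans 89274471 to 89294653 and Cdkn2b spans 89306299 to 89311039 of GRCm38, 11645 bases apart. The starts of the 2 Cdkn2a transcripts lie 12461 bases apart. Their promoters are shown because the level of Cdkn2a was divided differently between its starts in the lines, as described with the transcripts of the gene. Each sequence is that of RefSeq on GRCm38.p6, read on the minus strand from 250 bases before to 50 bases after the start, 300 bases in all, and capitals mark CpG, a C followed by a G, the pair at which mammalian DNA is methylated.
Arf promoter of Cdkn2a, chr4:89294570-89294869: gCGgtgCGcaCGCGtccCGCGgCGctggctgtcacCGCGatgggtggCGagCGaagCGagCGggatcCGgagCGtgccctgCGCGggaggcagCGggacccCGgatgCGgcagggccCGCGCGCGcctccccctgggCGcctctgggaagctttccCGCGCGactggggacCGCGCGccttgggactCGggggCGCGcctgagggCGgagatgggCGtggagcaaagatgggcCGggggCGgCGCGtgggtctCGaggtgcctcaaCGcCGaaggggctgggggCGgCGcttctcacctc
Ink4a promoter of Cdkn2a, chr4:89282143-89282442: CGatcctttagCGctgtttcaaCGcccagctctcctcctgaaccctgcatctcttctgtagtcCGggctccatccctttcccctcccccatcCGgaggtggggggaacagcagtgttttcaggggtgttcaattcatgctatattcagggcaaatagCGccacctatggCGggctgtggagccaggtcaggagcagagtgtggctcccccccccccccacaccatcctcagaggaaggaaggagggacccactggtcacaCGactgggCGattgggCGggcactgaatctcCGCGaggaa
Cdkn2b promoter, chr4:89310983-89311282: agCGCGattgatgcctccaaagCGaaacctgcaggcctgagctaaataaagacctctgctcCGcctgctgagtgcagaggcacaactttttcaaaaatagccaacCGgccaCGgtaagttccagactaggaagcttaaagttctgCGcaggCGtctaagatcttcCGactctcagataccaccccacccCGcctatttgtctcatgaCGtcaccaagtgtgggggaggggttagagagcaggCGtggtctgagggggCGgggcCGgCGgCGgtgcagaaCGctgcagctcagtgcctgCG

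The Arf window held 45 CpG, the Ink4a window 12 and the Cdkn2b window 18, against a median of 7 over 32851 promoters of the same length. As many CpG as in the Arf window were reached by 1.93% of those promoters, as many as in the Ink4a window by 39.6% and as many as in the Cdkn2b window by 29.7%. RefSeq promoters were found for 7 of the 9 genes, 10 promoters in all. A search on both strands for the E2F letters TTTCCCGC, TTTCGCGC, TTTGCCGC and TTTGGCGC matched 1 of the 10, the Arf promoter, with TTTCCCGC beginning 99 bases before the start, and 2.26% of all promoters held a match. The letters CTTTGAA and CTTTGAT, which Tcf/Lef factors bind in Wnt signalling, were in 0 of the 10 windows and in 8.65% of all promoters. The E2F and Tcf/Lef letters do not overlap each other, and a match is a description of these letters only.

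Before the results, the lines were checked against their labels. Dkk1 itself was at 0.190, 0.228 and 0.309 TPM, a relative level scaled to transcript length, in Dkk1_KO, against 2.36 and 2.64 TPM in control, and IWP2 replicate 2 stood lower still at 0.0930 TPM. The summed level of 12 epiblast markers was 239 to 257 TPM in Dkk1_KO, 1463 to 1529 TPM in IWP2_removed, 1039 to 1875 TPM in IWP2 and 986 to 1301 TPM in control. That of 15 trophoblast markers was 914 to 976 TPM in Dkk1_KO, 14.5 to 38.7 TPM in IWP2_removed, 9.29 to 28.9 TPM in IWP2 and 10.8 to 26.3 TPM in control. The Dkk1_KO libraries thus went against their cell type label: 6 of 12 epiblast markers were lower and 3 higher than in control, 11 of 13 trophoblast markers tested were higher and 0 lower, and Prl3d1, a trophoblast giant cell marker, was at 0 in all 9 libraries while Tpbpa, a spongiotrophoblast marker, was at 0 in 2 of 3 Dkk1_KO libraries and in all 6 others. All 8 neural markers were lower in Dkk1_KO, with sums of 5.90 to 9.0 TPM against 47.7 to 74.0 TPM in control. The sums of 8 endoderm markers were 8.28 to 8.61 TPM in Dkk1_KO and 23.4 to 33.8 TPM in control, with 1 of the 6 tested higher and 3 lower. Feeder fibroblast markers, all 15 of them present in every library, summed to 573 to 603 TPM in Dkk1_KO, 954 to 1304 TPM in IWP2_removed, 661 to 1131 TPM in IWP2 and 1153 to 1221 TPM in control, and 10 of 15 were lower and 0 higher in Dkk1_KO. The part of these other markers in the results below was not tested. In bulk libraries fewer cells of a type and less RNA per cell cannot be told apart. Total estimated counts ran from 10849490 to 17892751 per library.

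In Dkk1_KO against control, the cyclin D2, Cdk6, cyclin E2 and p27 genes fell and the cyclin E1 and Cdkn2a genes rose. This made 6 of the 9 genes called, 2 higher and 4 lower, at an adjusted p below 0.05 (edgeR quasi-likelihood test, Benjamini-Hochberg over 18096 genes), in a comparison in which 44.3% of all genes tested were called, 21.3% higher and 23% lower. With so wide a background the count says little of these genes as a group, and the values of each follow. In CPM, reads per library brought to 1 shared total, the groups did not overlap for 7 of the 9, nor for 73.4% of all genes. Their median log2 fold change was -0.64, and that of all genes tested was -0.03. With the 3 Dkk1_KO libraries averaged to 1 library, 3 of the 9 were called, Ccnd2, Cdk6 and Ccne1.

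**Figure D1:**
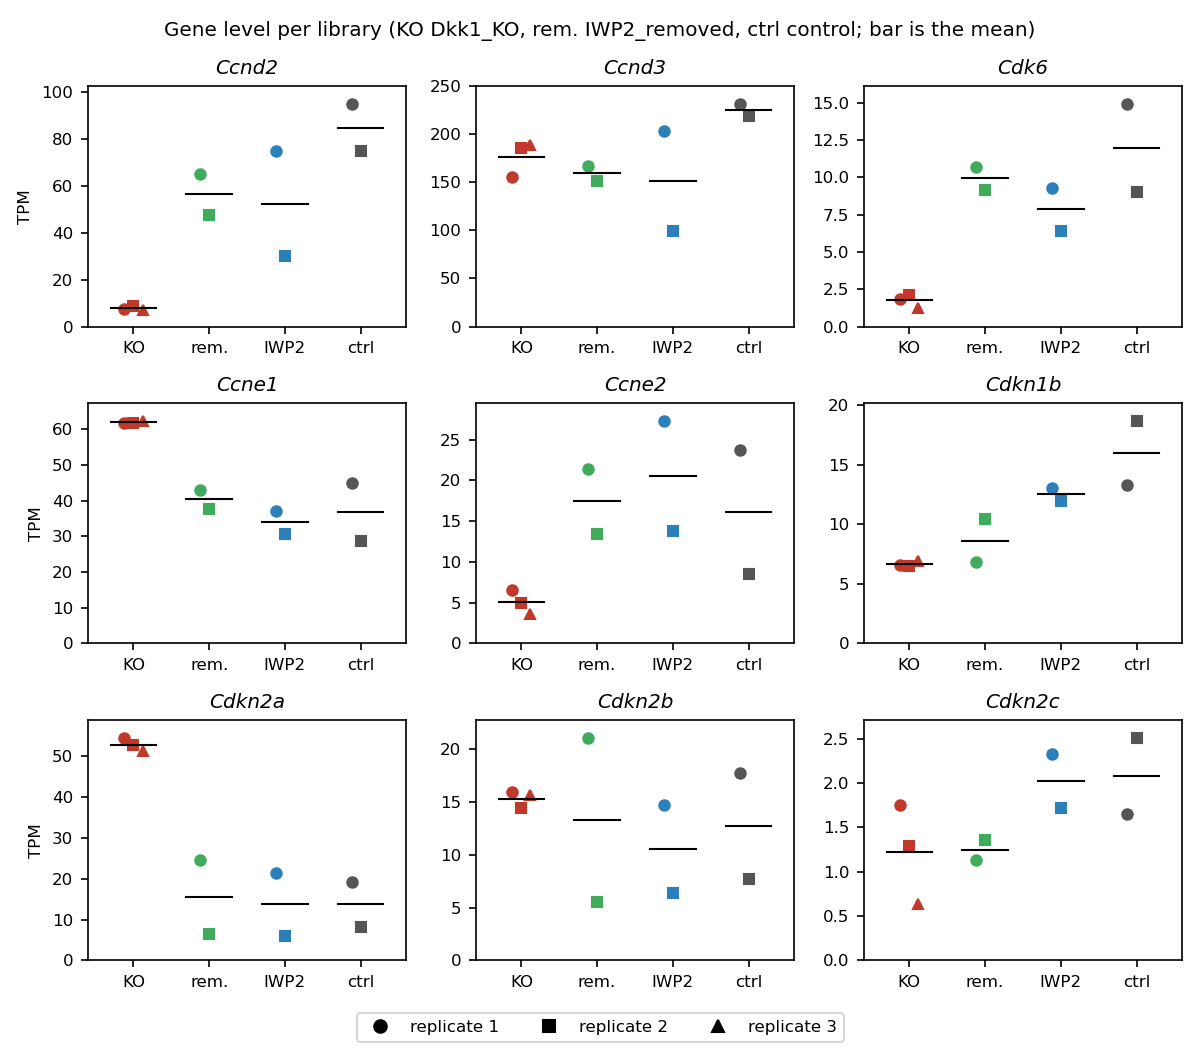
Level of each of the 9 genes per library in TPM on a linear axis from 0, with the 4 groups side by side, 1 point per library shaped by replicate number and a bar at the group mean. The Dkk1_KO libraries lie below all other libraries for Ccnd2, Cdk6 and Ccne2 and above all others for Ccne1 and Cdkn2a, and replicate 1 lies above replicate 2 for Cdkn2a and Cdkn2b in the 3 other lines.

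Ccnd2 encodes cyclin D2, which carries growth factor signals into G1. Its level was 7.35, 8.63 and 7.20 TPM in Dkk1_KO, 65.2 and 47.6 TPM in IWP2_removed, 74.6 and 30.1 TPM in IWP2, and 94.8 and 74.7 TPM in control. All Dkk1_KO libraries lay far below the 6 others, and the IWP2_removed and IWP2 ranges overlapped each other. Against control, Ccnd2 was 7.83-fold lower in Dkk1_KO, with a log2 fold change of -2.97 ± 0.21 (SE; 95% interval -3.45 to -2.49; adjusted p = 1.62e-05). Most of this level came from the long transcript Ccnd2-201, at 6.30 to 6.44 TPM in Dkk1_KO and 47.2 to 70.8 TPM in control. A short transcript of 415 bases was at 0.80 to 1.29 TPM in Dkk1_KO and 19.4 and 23.7 TPM in control, yet was listed at 0 in replicate 2 of IWP2_removed and of IWP2.

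Ccnd3, the cyclin D3 gene, had 155, 186 and 189 TPM in Dkk1_KO, 167 and 152 TPM in IWP2_removed, 203 and 99.2 TPM in IWP2, and 232 and 219 TPM in control. In TPM, control was highest, and the 3 other ranges overlapped one another. In CPM, Dkk1_KO (198 to 210) lay inside the control range (191 to 234). The count model found no call for Dkk1_KO against control (log2 fold change -0.07 ± 0.13, 95% interval -0.37 to 0.23, adjusted p = 0.704). Much of the Ccnd3 level rested on 2 short transcripts of 336 and 385 bases, to which few reads give many TPM. The transcript Ccnd3-205, of 1977 bases, stood at 60.0 to 63.9 TPM in Dkk1_KO, 53.4 and 61.1 TPM in IWP2_removed, 53.1 and 53.8 TPM in IWP2, and 73.4 and 77.2 TPM in control. On that transcript the spread within IWP2 was much smaller than on the gene.

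Among the D cyclins the mix changed with Ccnd2. Ccnd2 made up 3.26% to 3.94% of the summed TPM of the D cyclin genes in Dkk1_KO and 21.8% to 22.0% in control, with 20.0% to 20.4% in IWP2_removed and 17.9% to 21.2% in IWP2. Ccnd3 made up 83.0% to 85.3% in Dkk1_KO and 53.8% to 64.0% in control. These shares include the short Ccnd3 transcripts, which raise the part of Ccnd3. Of the long transcripts, Ccnd2-201 was at 70.8 and 47.2 TPM in control, and Ccnd3-205 was at 73.4 and 77.2 TPM. In Dkk1_KO they were at 6.30 to 6.44 TPM and 60.0 to 63.9 TPM. Ccnd1, the cyclin D1 gene and not one of the 9, was named after its values were seen, and it was also lower in Dkk1_KO, at 24.5 to 25.3 TPM against 104 and 48.7 TPM in control (log2 fold change -1.24 ± 0.33, adjusted p = 0.0161).

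Cdk6, a kinase partner of the D cyclins, was at 1.88, 2.13 and 1.28 TPM in Dkk1_KO, 10.7 and 9.18 TPM in IWP2_removed, 9.30 and 6.44 TPM in IWP2, and 14.9 and 9.0 TPM in control. Dkk1_KO was lowest without overlap, and the ranges of neighbouring groups among the other 3 overlapped. Cdk6 was 6.88-fold lower in Dkk1_KO than in control (log2 fold change -2.78 ± 0.25, 95% interval -3.36 to -2.20, adjusted p = 5.93e-05). Cdk4, which encodes the other kinase of the D cyclins and is far more abundant per length, also fell, at 240 to 250 TPM in Dkk1_KO against 990 and 736 TPM in control (log2 fold change -1.54 ± 0.13, adjusted p = 4.1e-05). Cdk6 was 0.530% to 0.869% of the sum of both kinases in Dkk1_KO and 1.21% to 1.49% in control. It was 1.23% and 1.03% in IWP2_removed and 0.983% and 0.644% in IWP2, so that Dkk1_KO and IWP2 overlapped.

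The E cyclins went opposite ways. Ccne1, the cyclin E1 gene, had 61.7, 61.9 and 62.3 TPM in Dkk1_KO, 43.1 and 37.6 TPM in IWP2_removed, 37.2 and 30.7 TPM in IWP2, and 44.9 and 28.8 TPM in control. Every Dkk1_KO library lay above every other library, and the 3 other groups overlapped. Ccne1 was 1.96-fold higher in Dkk1_KO than in control (log2 fold change 0.97 ± 0.14, 95% interval 0.65 to 1.28, adjusted p = 0.000658).

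Ccne2, the cyclin E2 gene, had 6.50, 4.97 and 3.65 TPM in Dkk1_KO, 21.4 and 13.4 TPM in IWP2_removed, 27.3 and 13.7 TPM in IWP2, and 23.7 and 8.49 TPM in control. Dkk1_KO was again apart, now at the bottom, and replicate 1 exceeded replicate 2 in each of the 3 other lines. Ccne2 was 2.50-fold lower in Dkk1_KO than in control (log2 fold change -1.32 ± 0.29, 95% interval -1.98 to -0.66, adjusted p = 0.00624). Without control replicate 1 its log2 fold change was -0.78 and it was no longer called (adjusted p = 0.0621), and over 19 alternatives its adjusted p ran from 2.54e-06 to 0.122. Ccne1 made up 90.5% to 94.5% of the E cyclin TPM in Dkk1_KO, 66.8% and 73.7% in IWP2_removed, 57.7% and 69.1% in IWP2, and 65.4% and 77.3% in control. These shares rest in part on Ccne2-205, a transcript of 432 bases with few reads. It was 10.8% to 33.4% of the Ccne2 level in Dkk1_KO and 25.6% to 49.5% in the other lines. The longer Ccne2-202, of 2908 bases, was at 2.34 to 2.65 TPM in Dkk1_KO and 10.5 and 4.85 TPM in control.

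**Figure D2:**
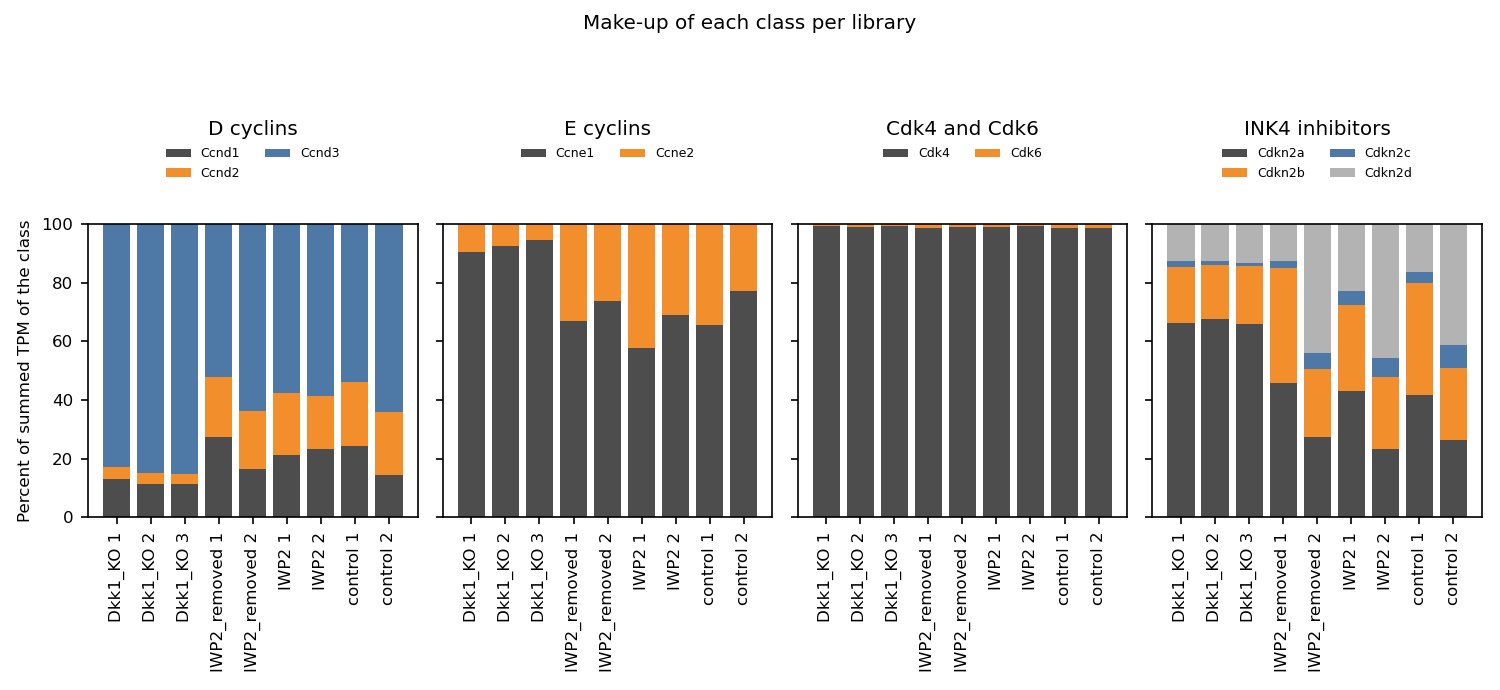
Share of each gene in the summed TPM of its class, in percent, with 1 stacked bar per library. Ccnd2 and Ccne2 take smaller shares of their classes in the 3 Dkk1_KO libraries than in the other 6. Cdkn2a takes 65.8% to 67.5% of the INK4 class in Dkk1_KO against 26.3% and 41.6% in control. This share counts both Cdkn2a transcripts. The Arf transcript, which does not encode an INK4 protein, is 66.6% to 72.3% of Cdkn2a in Dkk1_KO. The Ink4a transcript of Dkk1_KO overlaps replicate 1 of IWP2_removed and of IWP2. The shares of Ccnd3 rest in large part on short transcripts, and those of Ccne2 rest in part on 1.

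Cdkn1b, the p27 gene, had 6.57, 6.53 and 6.91 TPM in Dkk1_KO, 6.87 and 10.4 TPM in IWP2_removed, 13.1 and 12.0 TPM in IWP2, and 13.3 and 18.7 TPM in control. In TPM, Dkk1_KO overlapped IWP2_removed and lay below IWP2 and control, and IWP2 lay below control. In CPM, Dkk1_KO (26.1 to 27.2) lay just below IWP2_removed (27.7 and 44.7). There IWP2 (47.7 and 52.5 CPM) lay inside the control range (43.9 to 74.3 CPM). Cdkn1b was 2.22-fold lower in Dkk1_KO than in control (log2 fold change -1.15 ± 0.25, 95% interval -1.72 to -0.58, adjusted p = 0.00588). Without control replicate 2 the log2 fold change was -0.69 and the call was lost (adjusted p = 0.0696), within a range of 4.82e-06 to 0.129 over 19 alternatives. Of its 3 transcripts the longest, Cdkn1b-202 of 4552 bases, was at 0.88 to 0.98 TPM in Dkk1_KO and 4.32 and 5.13 TPM in control. Cdkn1b-203, of 1757 bases, was at 0.0175 to 1.23 TPM in Dkk1_KO and 7.16 and 5.24 TPM in control. Cdkn1b-201 was at 4.37 to 5.63 TPM in Dkk1_KO and 1.85 and 8.33 TPM in control, which overlap.

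Cdkn2a, which encodes the INK4 protein p16 and Arf, had 54.5, 52.7 and 51.2 TPM in Dkk1_KO, 24.6 and 6.51 TPM in IWP2_removed, 21.5 and 6.07 TPM in IWP2, and 19.2 and 8.29 TPM in control. All Dkk1_KO libraries were highest, and within each other line replicate 1 was above replicate 2. Cdkn2a was 4.78-fold higher in Dkk1_KO than in control, with the widest interval of the 6 genes called (log2 fold change 2.26 ± 0.60, 95% interval 0.88 to 3.63, adjusted p = 0.0155). Without control replicate 2 its log2 fold change was 1.87 and the call was lost (adjusted p = 0.114), within a range of 1.27e-09 to 0.114 over 19 alternatives.

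The 2 Cdkn2a transcripts were not raised alike in level. Cdkn2a-202, which starts at the Arf exon, was at 37.3, 35.1 and 37.0 TPM in Dkk1_KO, 8.54 and 1.74 TPM in IWP2_removed, 5.47 and 2.67 TPM in IWP2, and 7.70 and 4.68 TPM in control. Cdkn2a-201, which starts at the Ink4a exon, was at 17.2, 17.6 and 14.2 TPM in Dkk1_KO, 16.03 and 4.77 TPM in IWP2_removed, 16.1 and 3.41 TPM in IWP2, and 11.5 and 3.61 TPM in control. The Arf transcript stood apart from all 6 other libraries, whereas the Ink4a transcript overlapped replicate 1 of IWP2_removed and of IWP2. The Arf transcript was 66.6% to 72.3% of the Cdkn2a level in Dkk1_KO, 34.7% and 26.7% in IWP2_removed, 25.4% and 43.9% in IWP2, and 40.1% and 56.5% in control. These are descriptions with no test: the transcripts share all exons but the first, so that their division rests on reads that reach the first exon.

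**Figure D3:**
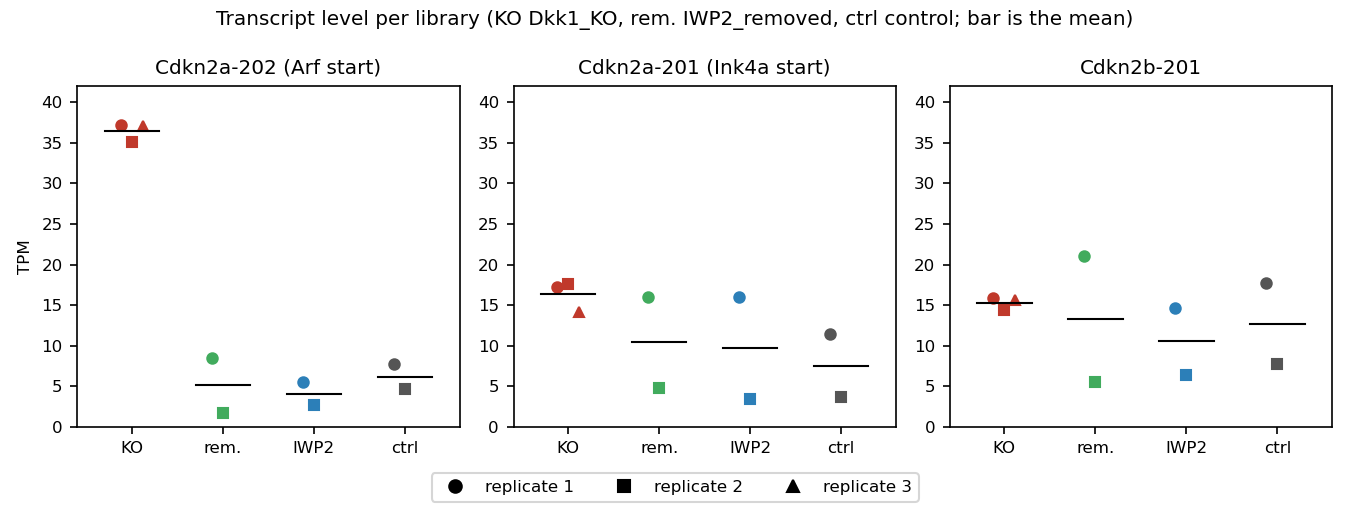
Level in TPM of the 2 Cdkn2a transcripts and of Cdkn2b per library, on 1 shared linear axis from 0, with the group mean as a bar. The Arf transcript lies at 35.1 to 37.3 TPM in Dkk1_KO and at 8.54 TPM or less in all other libraries, whereas Cdkn2b overlaps between the groups.

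Cdkn2b, the neighbouring gene, encodes the INK4 protein p15. It had 15.9, 14.4 and 15.6 TPM in Dkk1_KO, 21.0 and 5.54 TPM in IWP2_removed, 14.7 and 6.37 TPM in IWP2, and 17.7 and 7.73 TPM in control. The Dkk1_KO range lay inside the control range in TPM and just above it in CPM (27.7 to 30.7 against 26.7 and 13.7 CPM), and no call was made (log2 fold change 0.55 ± 0.51, 95% interval -0.62 to 1.72, adjusted p = 0.418). Reads of Cdkn2a per read of Cdkn2b numbered 1.90, 2.02 and 1.82 in Dkk1_KO, 0.631 in both IWP2_removed libraries, 0.788 and 0.519 in IWP2, and 0.587 and 0.588 in control. The ratio was alike in the replicates of control and of IWP2_removed, whose levels of both genes differed by 1.94-fold and 3.54-fold in CPM, but not in those of IWP2, which differed by 2.86-fold for Cdkn2a and 1.88-fold for Cdkn2b.

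Cdkn2c, which encodes the INK4 protein p18, was the least abundant of the INK4 genes among the 9. It had 1.75, 1.29 and 0.638 TPM in Dkk1_KO, 1.13 and 1.36 TPM in IWP2_removed, 2.32 and 1.71 TPM in IWP2, and 1.66 and 2.51 TPM in control. The Dkk1_KO and control ranges overlapped, and the difference was not called (log2 fold change -0.64 ± 0.41, 95% interval -1.57 to 0.29, adjusted p = 0.238). The 3 Dkk1_KO libraries held 118 Cdkn2c reads together and the 2 control libraries 127.

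Replicates 1 and 2 of the 3 lines other than Dkk1_KO carry the letters B and C in the names of their tables, and the meaning of the letters is not given. Over these letters, Cdkn2a was 3.54-fold higher in replicate 1 than in replicate 2 of IWP2_removed, 2.86-fold higher in IWP2 and 1.94-fold higher in control, in CPM. Cdkn2b, Ccnd2, Ccne2 and Cdk6 were higher in replicate 1 in all 3 lines too. Cdkn1b and Ccnd3 were lower in replicate 1 in all 3, and Ccne1 and Cdkn2c went both ways. The summed feeder markers were higher in replicate 1, at 1304 TPM in replicate 1 and 954 TPM in replicate 2 of IWP2_removed, 1131 and 661 TPM in IWP2, and 1221 and 1153 TPM in control, and their part in these differences was not tested. The Dkk1_KO libraries carry the letters A, B and C. Within the libraries with letter B, the log2 difference of Dkk1_KO from control was -3.09 for Ccnd2, -3.14 for Cdk6, 0.79 for Ccne1, -1.77 for Ccne2, -0.71 for Cdkn1b and 1.81 for Cdkn2a. Within letter C it was -2.81 for Ccnd2, -2.31 for Cdk6, 1.15 for Ccne1, -0.76 for Ccne2, -1.44 for Cdkn1b and 2.68 for Cdkn2a. The CPM of Dkk1_KO and control did not overlap for any of these 6 genes. The same direction within both letters was thus fixed in advance, and only the sizes can be compared. The 3 Dkk1_KO libraries were far closer to one another than the libraries of any other group: the median SD of log2 CPM was 0.0577 in Dkk1_KO, 0.161 in IWP2_removed, 0.292 in IWP2 and 0.170 in control.

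In IWP2 against control, none of the 9 genes changed past the threshold: 0 of 9 were called in edgeR, DESeq2 and limma, where 2.19% of all genes were called in edgeR. Ccnd3 alone reached an unadjusted p below 0.05, as 16.4% of all genes did, with 155 and 170 CPM in IWP2, below the 191 and 234 CPM of control (a log2 fold change of -0.39 ± 0.14 with adjusted p = 0.225). Such a gap between the groups was found for 34.9% of all genes. The intervals of the log2 fold change use a spread shared over all 9 libraries. The Dkk1_KO libraries, with a median SD of log2 CPM of 0.0577 against 0.292 in IWP2 and 0.170 in control, are among them. The intervals may thus be too narrow here, and they do not bound a change that went unseen. They ran from -0.90 to 0.14 for Ccnd2, from -0.71 to -0.057 for Ccnd3 and from -1.04 to 0.20 for Cdk6. Further, they ran from -0.24 to 0.43 for Ccne1, from -0.25 to 1.19 for Ccne2 and from -0.87 to 0.39 for Cdkn1b. For the INK4 genes they were wider, from -1.33 to 1.51 for Cdkn2a, from -1.42 to 1.11 for Cdkn2b and from -0.97 to 1.04 for Cdkn2c. The background was unsettled by single libraries: 396 genes were called with all of them, 2432 without IWP2 replicate 1, 716 without IWP2 replicate 2, 129 and 70 without control replicates 1 and 2, and 101 to 115 without 1 of the Dkk1_KO libraries.

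In IWP2_removed against control, 0 of the 9 genes were called in edgeR, DESeq2 and limma, against 1.25% of all genes in edgeR. Cdkn1b alone had an unadjusted p below 0.05, as 11.9% of all genes did, with 27.7 and 44.7 CPM in IWP2_removed and 43.9 and 74.3 CPM in control, which overlap (log2 fold change -0.71 ± 0.28, 95% interval -1.34 to -0.08, adjusted p = 0.346). Ccnd3 did not overlap between the groups, at 162 and 188 CPM in IWP2_removed against 191 and 234 CPM for control (a log2 fold change of -0.28 ± 0.14 with adjusted p = 0.517), and such gaps were found for 38.4% of all genes. The other 7 genes overlapped, with log2 fold changes between -0.57 for Cdkn2c and 0.29 for Cdkn2a. Here 227 of all genes were called with all libraries, 730 and 738 without IWP2 replicates 1 and 2, 14 and 20 without IWP2_removed replicates 1 and 2, 37 and 31 without control replicates 1 and 2, and 29 to 35 without 1 of the Dkk1_KO libraries.

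IWP2_removed against IWP2 sets the line from which the inhibitor was taken away beside the line kept with it. With 1 line a group, an effect of the removal and an effect of the line cannot be told apart. Again 0 of the 9 genes were called in edgeR, DESeq2 and limma, and 0.0608% of all genes were called in edgeR, 11 genes. An unadjusted p below 0.05 was reached by 0 of the 9 and by 9.69% of all genes. Cdkn1b, at 27.7 and 44.7 CPM in IWP2_removed and 47.7 and 52.5 CPM in IWP2, and Cdkn2c, at 2.24 and 3.71 CPM in IWP2_removed and 3.95 and 5.12 CPM in IWP2, did not overlap, as 27% of all genes did not. Their log2 fold changes were -0.47 ± 0.28 (95% interval -1.10 to 0.16, adjusted p = 0.704) for Cdkn1b and -0.61 ± 0.44 (95% interval -1.62 to 0.41, adjusted p = 0.817) for Cdkn2c. Without IWP2 replicate 1 the 11 genes became 395 and without replicate 2 they became 454, whereas leaving out any other library gave 0 to 2. The 3 comparisons among these lines and the one with Dkk1_KO share libraries, so their values are not independent of one another.

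**Figure D4:**
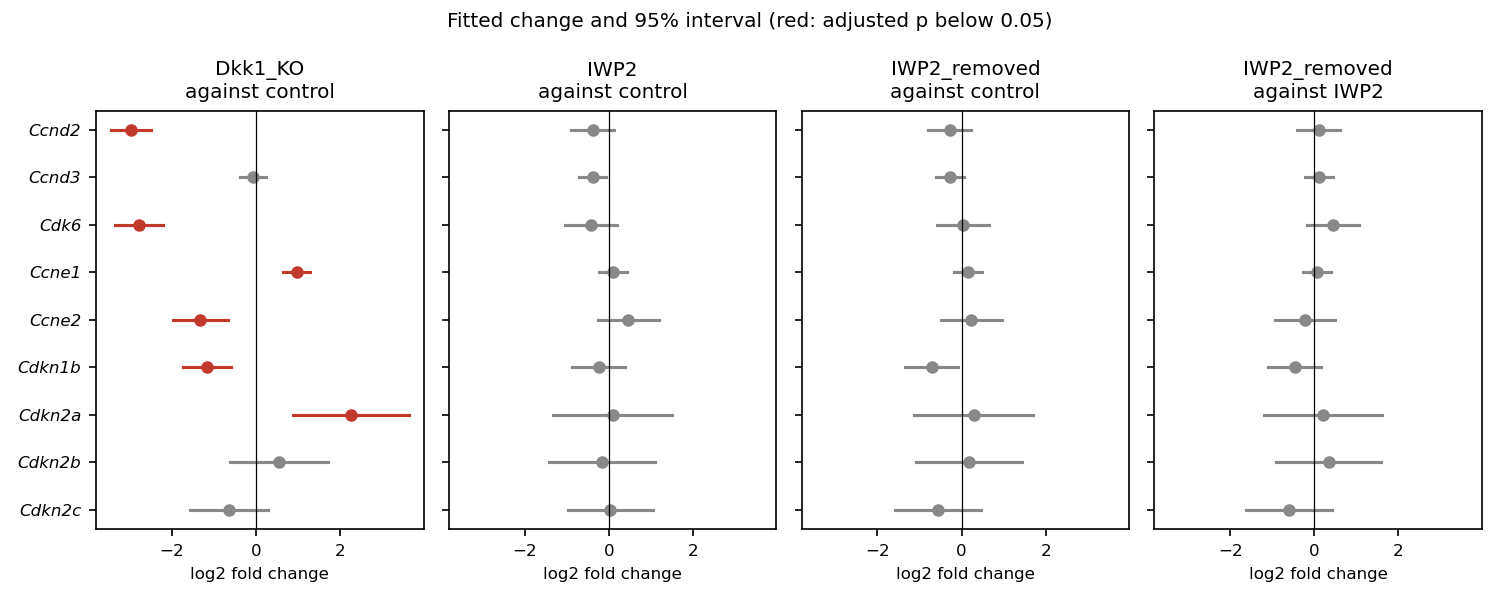
Fitted log2 fold change of each of the 9 genes (points) with its 95% interval (lines) in the 4 comparisons, with genes down the page and red for an adjusted p below 0.05. Red occurs in Dkk1_KO against control alone, for 6 genes, and the intervals of Cdkn2a and Cdkn2b are wide in every comparison.

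Of 28 other G1 regulators, Dkk1_KO had 9 lower and 0 higher relative to control, with a median log2 fold change of -0.15 against -0.03 over all genes, of which 44.3% were called, 23% lower and 21.3% higher. The 3 with the smallest adjusted p were Cdk4, given above, Mycn, a Myc family transcription factor gene (6.33 TPM in Dkk1_KO and 26.1 TPM in control, a log2 fold change of -1.81 ± 0.16 with adjusted p = 5.12e-05), and Tfdp2, whose product pairs with E2F factors (7.80 TPM in Dkk1_KO and 11.2 TPM in control, log2 fold change -1.13 ± 0.11, adjusted p = 0.000108). Cdk2, the kinase gene of the E cyclins, was chosen after its values were seen and was at 29.8 TPM in Dkk1_KO and 35.9 TPM in control (log2 fold change -0.01 ± 0.10, adjusted p = 0.923). In IWP2 against control 1 of the 28 was higher and 0 lower, E2f3, a transcription factor gene of the G1 to S step (18.6 TPM in IWP2 and 12.3 TPM in control, log2 fold change 0.72 ± 0.13, adjusted p = 0.034). In IWP2_removed against control and against IWP2, 0 of the 28 were called, with 2 and 4 at an unadjusted p below 0.05.

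Of 21 S phase genes, Dkk1_KO had 4 higher and 6 lower relative to control, a share near the 44.3% called over all genes. Tyms, for thymidylate synthesis, and Rrm1, for ribonucleotide reduction, were lower, at log2 fold changes of -0.97 ± 0.15 (adjusted p = 0.000908) and -0.58 ± 0.12 (adjusted p = 0.00419), and Cdt1, for the licensing of replication origins, was higher at 0.96 ± 0.20 (adjusted p = 0.00498). Of 20 G2 and M phase genes, 2 were higher and 2 lower, a share below the 44.3% of all genes. Nusap1, a spindle protein gene, was lower (log2 fold change -1.18 ± 0.25, adjusted p = 0.00547), as was Foxm1, a transcription factor of mitotic genes (-0.33 ± 0.10, adjusted p = 0.029), and Cdkn3, a phosphatase gene, was higher (1.55 ± 0.34, adjusted p = 0.00588). The median log2 fold changes of both lists, -0.13 for S phase and 0.13 for G2 and M phase, lay near that of all genes. In IWP2 against control 0 of the 41 genes of both lists were called, with 2 at an unadjusted p below 0.05, and in IWP2_removed against control 1 was, Cenpe, a kinetochore motor gene (33.6 TPM in IWP2_removed and 17.97 TPM in control, log2 fold change 0.80 ± 0.15, adjusted p = 0.0475).

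**Figure D5:**
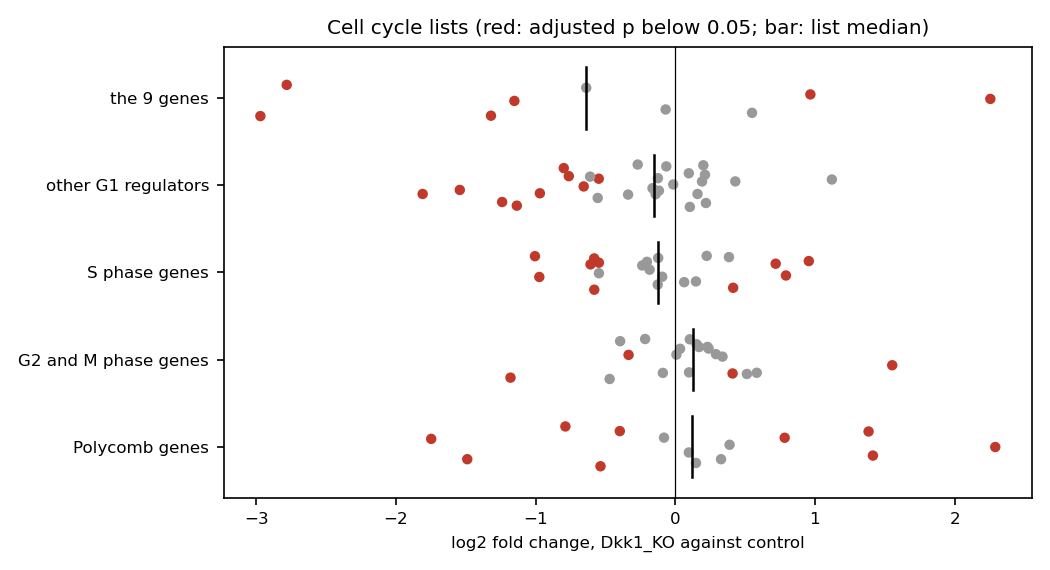
Log2 fold change of every gene of 5 cell cycle lists in Dkk1_KO against control, with 1 point per gene, red where the adjusted p is below 0.05 and a bar at the list median. The 28 other G1 regulators hold 9 genes called and all 9 are lower, whereas the S phase list holds 4 higher and 6 lower.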

How the data were processed

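The deposited tables of the authors give, per transcript, estimated counts of reads and TPM for each library (TruSeq stranded mRNA, per the labels' protocols). Salmon, DESeq2 and edgeR stand in the submitters' processing notes with no version; for the transcriptome build, none is given in the sources used here. Transcripts were assigned to genes with GENCODE vM21 (GRCm38): 133399 of 133618 matched by identifier, 2166 of them with another version number, and the 219 unmatched held 0.117% to 0.161% of reads. Both values were summed per gene over 52609 genes, and counts were rounded.

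The quasi-likelihood test of edgeR 4.0.16 (R 4.3.3) was run once on all 9 libraries, with the 4 groups as the only term, TMM scaling and the filter filterByExpr, which left 18096 genes. Genes were called at a Benjamini-Hochberg adjusted p below 0.05 over all genes tested, and intervals are 95% intervals of the model. The replicate number was not a term. The procedure was tested on simulated counts with known changes, with the spread taken from the 6 libraries without Dkk1_KO. Changes of 2-fold were recovered for 14% of genes in Dkk1_KO against control and 7% in IWP2 against control. The share was 9% in IWP2_removed against control and 10% in IWP2_removed against IWP2. Changes of 4-fold were recovered for 70% to 81%. Of 86 to 102 calls per comparison, 4 to 9 were of unchanged genes. A 2-fold change was thus mostly missed in the simulated counts. There the Dkk1_KO libraries had the spread of the other lines, which was wider than their own. Far fewer genes were changed than were called in Dkk1_KO against control. The shares for that comparison may thus not carry over to the data, where Ccne1 was called at 1.96-fold. Alternatives were DESeq2 1.42.0, limma 3.58.1 on log2(TPM + 1) with a pseudocount of 1, DESeq2 size factors, other filters, a length offset, other sets of libraries, blocks and each library left out in turn. File letter blocks on the 6 libraries without Dkk1_KO were added after seeing the data.

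The 9 genes and all gene lists were chosen with earlier results of these data known. Beside the 9, the text names up to 3 called genes with the smallest adjusted p per list and comparison (or up to 2 with the highest mean where none was called), Dkk1, the nearest coding genes beside Cdkn2a and Cdkn2b, transcripts of at least 0.5 TPM in a group mean (38 of 55), and the genes most like a member in pattern. For marker lists, sums or counts are given, with single genes for the epiblast and trophoblast markers. For lists without a call, sums or counts stand in place of single genes. Of the transcripts, those that carry most of a level are given. Genes outside this rule are named as such. A gene that the rule names is not reported here.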

Additional observations from a re-analysis of the deposited data

How the results depend on the processing

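Of the 6 genes called in Dkk1_KO against control, Ccnd2, Cdk6 and Ccne1 were called in all 19 alternatives, with adjusted p of at most 0.00558, 0.00999 and 0.0369. With the Dkk1_KO libraries averaged to 1, 3 of the 9 genes and 2725 of all genes were called, and adjusted p was 0.122 for Ccne2, 0.129 for Cdkn1b and 0.113 for Cdkn2a. Leaving out single libraries gave 4 to 6 of the 9 and 6143 to 9692 of all genes. With limma-trend on log2(TPM + 1) the adjusted p of Ccne2 was 0.0511, and the median log2 fold change of all genes was -0.13 in place of -0.03.

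In the other 3 comparisons 0 of the 9 genes were called under any of 21 alternatives, whereas the counts of all genes moved widely. For IWP2 against control, in place of 396, they were 1067 with DESeq2, 1220 without a filter, 169 with the length offset, 219 with limma, 1 with only the 2 groups, 12 with the 6 libraries without Dkk1_KO, 10 with Dkk1_KO averaged and 70 to 2432 with 1 library left out. For IWP2_removed against control, in place of 227, they were in the same order 657, 732, 79, 104, 10, 1, 1 and 14 to 738. For IWP2_removed against IWP2, in place of 11, they were 382, 414, 4, 5, 0, 1, 1 and 0 to 454, with 18 at 1 CPM in 2 libraries, 3 with the letter as a block and 2 with that block in the 6 libraries. Among single libraries, leaving out IWP2 replicate 1 or 2 gave the highest counts in these 3 comparisons. Of the calls, 58.1% were higher in IWP2 than in control and 53.3% in IWP2_removed than in control, against 42.9% and 35.6% with limma, and 47.3% for IWP2 with the length offset.

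Signs turned only for genes that were not called. In IWP2 against control, the log2 fold change of Cdkn2a was -0.0022 with the replicate block, -0.0011 with the letter block, -0.045 with that block in 6 libraries and -0.12 with limma, which also gave -0.088 for Ccne1 and -0.024 for Cdkn2c. In IWP2_removed against control, Cdk6 was at -0.13 with the length offset and -0.21 with limma, and Cdkn2b at -0.091 with limma. With 1 library left out, log2 fold changes in Dkk1_KO against control ran from -0.21 to 0.11 for Ccnd3 and from -1.06 to 0.020 for Cdkn2c. In IWP2 against control they ran from -0.062 to 0.26 for Ccne1, from -0.58 to 0.21 for Cdkn1b, from -0.86 to 0.66 for Cdkn2a, from -0.69 to 0.39 for Cdkn2b and from -0.39 to 0.69 for Cdkn2c. In IWP2_removed against control they ran from -0.29 to 0.43 for Cdk6, from -0.16 to 0.75 for Ccne2, from -0.90 to 0.93 for Cdkn2a, from -1.01 to 0.82 for Cdkn2b and from -1.01 to 0.065 for Cdkn2c. In IWP2_removed against IWP2 they ran from -0.16 to 0.44 for Ccnd2, from -0.0041 to 0.20 for Ccnd3, from -0.075 to 0.22 for Ccne1, from -0.61 to 0.058 for Ccne2, from -1.003 to 1.15 for Cdkn2a and from -0.86 to 0.98 for Cdkn2b. The cause was not tested.

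With the replicate number as a block, 6 of the 9 genes were called in Dkk1_KO against control and 0 in the others, and all genes called numbered 7340, 345, 135 and 2. Deviations from the group means over 12107 genes correlated at 0.430 to 0.661 between same-numbered libraries of the 3 lines other than Dkk1_KO, and at -0.104 to -0.0435 with those of Dkk1_KO. The labels do not say that the numbers pair the libraries. Cdkn2c had the fewest reads of the 9 genes, 96 to 160 per group.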

Other observations

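Polycomb proteins are known in mouse fibroblasts to hold the Cdkn2a locus silent. Of 14 Polycomb genes, Dkk1_KO had 4 higher and 5 lower relative to control, with a median log2 fold change of 0.12 against -0.03 over all genes, of which 44.3% were called. Phc1 was lower (14.7 TPM in Dkk1_KO and 59.3 TPM in control, a log2 fold change of -1.75 ± 0.19 with adjusted p = 0.00017), and Suz12 was higher (0.78 ± 0.12, adjusted p = 0.00104). Bmi1, chosen after its values were seen as a Polycomb gene known for this locus, was at 7.25 TPM in Dkk1_KO and 25.5 TPM in control (-1.49 ± 0.26, adjusted p = 0.00203). Cbx7, chosen in the same way, was at 62.7 TPM in Dkk1_KO and 8.70 TPM in control (2.29 ± 0.37, adjusted p = 0.00129). In IWP2 and in IWP2_removed against control, the same 2 of the 14 were called, both higher. Of all genes, 2.19% and 1.25% were called in these comparisons. Ezh2, the methyltransferase gene, was higher in IWP2_removed (152 TPM) and in IWP2 (158 TPM) than in control (78.8 TPM), with log2 fold changes of 0.94 ± 0.15 (adjusted p = 0.0312) and 0.99 ± 0.15 (adjusted p = 0.02). Rnf2, a ubiquitin ligase gene, was at 92.0 TPM in IWP2_removed, 77.2 TPM in IWP2 and 59.9 TPM in control, with log2 fold changes of 0.68 ± 0.12 (adjusted p = 0.0391) and 0.61 ± 0.12 (adjusted p = 0.0411). Whether any of this bears on Cdkn2a was not tested.

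Of the genes beside the Cdkn2a and Cdkn2b pair, Mtap was at 30.5, 30.5 and 31.4 TPM in Dkk1_KO, inside the control range of 28.1 to 43.1 TPM, and Dmrta1 was at 0.818 TPM or less in every library.

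The gene whose pattern was most like that of Cdkn2a over the 9 libraries was Errfi1, an inhibitor gene of the EGF receptor, with a root mean square difference of centred log2(TPM + 1) of 0.166, among 15189 genes, followed by Plaur (0.202) and Gsto1 (0.220). For Ccnd2 they were Tnfrsf19 (0.146), Armcx4 (0.220) and Arl4a (0.220), and for Cdk6 they were Mthfd2l (0.0739), Zhx1 (0.195) and Mpdz (0.198). For Ccne2 they were 2010111I01Rik (0.219), Gm3194 (0.228) and Neto2 (0.233), and for Cdkn1b they were Scara3 (0.103), Islr (0.163) and 2310022B05Rik (0.164). These are descriptions over libraries that share lines and letters.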
